A study of Mus musculus with 45 samples.

Results

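CXC chemokines, the secreted proteins that steer leukocyte traffic, were followed in bone marrow-derived macrophages (BMDMs) of mice with 3 variants of *Famin* (gene symbol *Lacc1*), which encodes a purine nucleoside enzyme. In all, 8 genes were named as the CXC chemokines of macrophages, *Cxcl1*, *Cxcl2*, *Cxcl3*, *Cxcl9*, *Cxcl10*, *Cxcl11*, *Cxcl14* and *Cxcl16*. Of these, 7 were listed in the deposited CPM table of 11900 genes and were kept, and *Cxcl3* was absent from it and was dropped by that rule. All 7 could also be followed in the count table of 29307 genes and all 7 passed the filter on low counts.

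The BMDMs came from 15 C57BL/6N mice aged 6 to 10 weeks, littermates of heterozygous breedings, 5 each of p.254I (the engineered counterpart of the fully active, non-risk human form), p.254V (that of the human risk form, at the same residue) and p.284R (that of a form causing monogenic disease, at another residue). Marrow cells of each mouse were grown with M-CSF for 6 days and then kept for 24 h without stimulus (M0), with LPS (20 ng/mL) together with IFN-γ (50 ng/mL) (M1), or with IL-4 (20 ng/mL) (M2). The 9 combinations hold 5 libraries each, 45 in all. A genotype and a replicate number together were read as naming 1 mouse and its 3 cultures. Each variant is carried in the germline, so every cell of the culture bears it, and M-CSF culture is a model of macrophages without the tissue around them.

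CXC chemokines fall into families by receptor. *Cxcl1*, *Cxcl2* and *Cxcl3* carry the ELR motif, bind CXCR2 and recruit neutrophils, and their short-lived mRNAs are induced through NF-κB and are degraded quickly. *Cxcl9*, *Cxcl10* and *Cxcl11* bind CXCR3 on activated T cells and NK cells and are known as interferon-induced genes of macrophages. *Cxcl14* is a homeostatic chemokine made by many resting tissues, and *Cxcl16* is a transmembrane chemokine that binds CXCR6 and is released by the proteases ADAM10 and ADAM17.

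In the reference annotation (GENCODE, GRCm38, the assembly mm10 of the files), 5 of the 7 genes lie on chromosome 5. *Cxcl1* (ENSMUSG00000029380, chr5:90891241-90893115) and *Cxcl2* (ENSMUSG00000058427, chr5:90903871-90905938) are 10.8 kb apart on the plus strand. *Cxcl9* (ENSMUSG00000029417, chr5:92321347-92328079), *Cxcl10* (ENSMUSG00000034855, chr5:92346638-92348889) and *Cxcl11* (ENSMUSG00000060183, chr5:92359544-92365485) follow each other on the minus strand, with gaps of 18.6 and 10.7 kb. *Cxcl14* (ENSMUSG00000021508, chr13:56288643-56296551) and *Cxcl16* (ENSMUSG00000018920, chr11:70453983-70459984) stand alone on other chromosomes. *Cxcl11* is annotated as a polymorphic pseudogene, because this strain's allele does not encode an intact protein, so that its reads measure a transcript only. *Cxcl10* and *Cxcl11* overlap *Art3*, *Cxcl11* also overlaps *Gm2673*, and *Cxcl16* overlaps *Zmynd15*, each on the opposite strand. *Gm2673* was not matched in the counts, so its level was not followed. The counting's use of strand is not given in the sources used here, so reads from the overlaps could be shared. *Art3* stayed at or below 0.594 CPM and *Zmynd15* between 1.11 and 39.7 CPM in the 45 libraries, against 55.5 CPM or more for *Cxcl16*.

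The bases before the transcription start are shown for the members with a promoter entry, to let genes higher and lower in M1 be compared. They are the 250 bases upstream of the start site in RefSeq on GRCm38.p6, given 5′ to 3′ on the gene's strand, and 5 of the 7 members (*Cxcl11* and *Cxcl16* not) matched the promoter table. The RefSeq starts of *Cxcl1* and *Cxcl2* lie slightly inside the GENCODE gene. Capitals mark matches, on either strand, to the NF-κB consensus, to the interferon-stimulated response element core GAAANNGAAA or to the IFN-γ activated sequence TTCNNNGAA.
Cxcl1 (chr5:90890995-90891244, plus strand): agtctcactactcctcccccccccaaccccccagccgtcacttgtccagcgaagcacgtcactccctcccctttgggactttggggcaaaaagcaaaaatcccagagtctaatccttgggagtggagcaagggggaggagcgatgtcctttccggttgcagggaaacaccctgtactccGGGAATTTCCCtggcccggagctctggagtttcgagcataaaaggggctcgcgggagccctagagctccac
Cxcl2 (chr5:90903649-90903898, plus strand): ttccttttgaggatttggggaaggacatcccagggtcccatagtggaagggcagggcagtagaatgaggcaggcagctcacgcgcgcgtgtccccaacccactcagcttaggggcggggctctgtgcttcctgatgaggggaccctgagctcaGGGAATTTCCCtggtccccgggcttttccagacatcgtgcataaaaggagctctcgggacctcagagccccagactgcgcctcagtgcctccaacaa
Cxcl9 (chr5:92328080-92328329, minus strand): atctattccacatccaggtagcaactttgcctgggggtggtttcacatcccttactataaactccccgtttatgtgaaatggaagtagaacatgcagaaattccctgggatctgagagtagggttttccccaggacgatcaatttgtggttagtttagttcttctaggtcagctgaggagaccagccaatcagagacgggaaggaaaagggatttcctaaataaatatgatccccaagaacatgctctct
Cxcl10 (chr5:92348890-92349139, minus strand): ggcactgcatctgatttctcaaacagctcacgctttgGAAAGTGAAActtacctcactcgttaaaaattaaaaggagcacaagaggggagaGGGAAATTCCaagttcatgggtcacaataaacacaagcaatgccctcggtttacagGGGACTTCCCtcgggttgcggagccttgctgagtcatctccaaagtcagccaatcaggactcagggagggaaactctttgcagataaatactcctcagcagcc
Cxcl14 (chr13:56296552-56296801, minus strand): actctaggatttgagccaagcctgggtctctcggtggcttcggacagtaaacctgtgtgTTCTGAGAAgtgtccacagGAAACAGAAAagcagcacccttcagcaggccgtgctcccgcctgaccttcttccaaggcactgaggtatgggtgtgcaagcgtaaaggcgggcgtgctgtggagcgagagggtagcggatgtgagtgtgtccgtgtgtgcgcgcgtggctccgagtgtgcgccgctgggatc

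The NF-κB consensus was found in 3.9% of 32841 RefSeq promoters of the same length and in 3 of these 5. *Cxcl1* and *Cxcl2* carried the same overlapping matches, 1 on each strand, that ended 61 and 87 bases before the start. *Cxcl10* carried 2 matches to that consensus, at 150 to 159 and 94 to 103 bases before the start. It also carried an interferon-stimulated response element core at 204 to 213 bases. That core was found in 2.98% of promoters and the IFN-γ activated sequence in 7.02%, and *Cxcl14* carried 1 match of each. The *Cxcl9* window held no exact match to any of the 3 motifs, and looser matches were not searched. These matches describe letters in the window and were not tested for function.

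The first question was how the chemokines answer polarization. Values below are CPM (read counts scaled to a common library size, with TMM factors), and a gene was called when edgeR's quasi-likelihood test gave a Benjamini-Hochberg adjusted p under 0.05 over 12905 genes. In M1 the 3 CXCR3 ligands rose by 5.20 to 12.48 on the log2 scale and *Cxcl16* rose slightly, while the CXCR2 ligands and *Cxcl14* fell. All 7 members were called, 4 higher and 3 lower, where 77.3% of all genes tested were called, 37.0% higher and 40.3% lower. In M2 none of the 7 was called higher and 5 were called lower, where 76.4% of all genes were called against M0, 36.8% higher and 39.6% lower. Between M1 and M2, 5 members were higher in M1 and *Cxcl14* was lower, where 79.1% of all genes were called, 39.0% higher and 40.1% lower. The median difference of the 7 was 0.45 in M1 and -1.82 in M2 against M0 (log2), beside -0.027 and -0.025 over all genes.

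**Figure D1:**
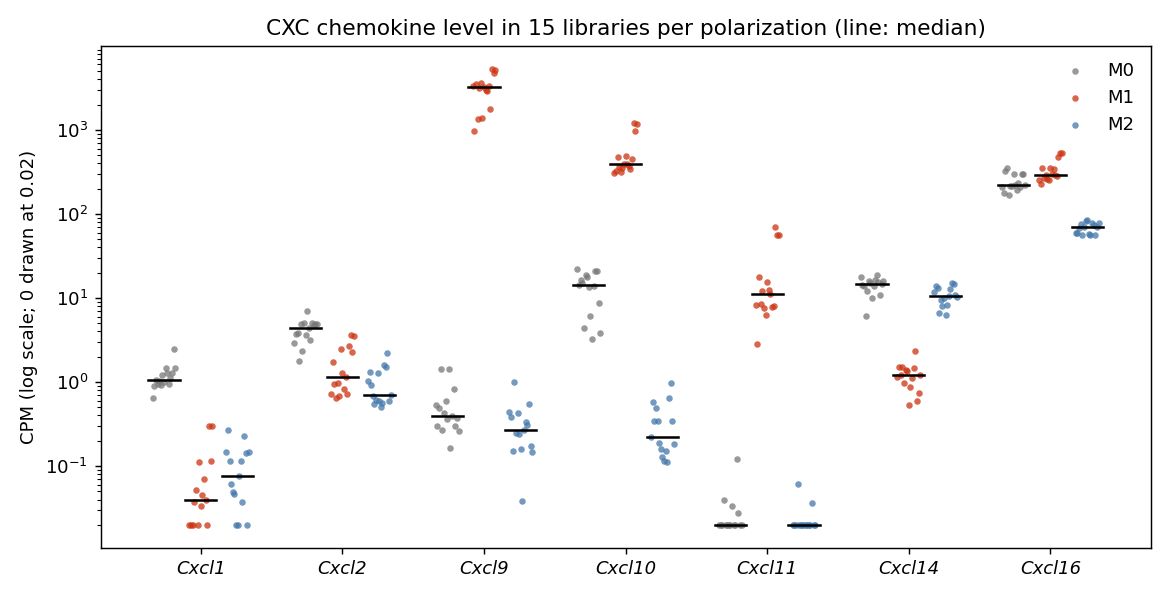
The level of each chemokine (y axis, CPM on a log scale, with 0 drawn at 0.02) in the 15 libraries of each polarization, with M0 in grey, M1 in red and M2 in blue; lines are medians. *Cxcl9* sits between 979 and 5340 CPM in M1 and at or below 1.45 CPM in every other library, and *Cxcl14* is lowest in M1.

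*Cxcl9*, which draws CXCR3-bearing T cells, had the widest span. In M0 it ran from 0.166 through a median of 0.397 to 1.45 CPM over 15 libraries, in M1 from 979 through 3262 to 5340 CPM, and in M2 from 0.0383 through 0.266 to 0.989 CPM. No M1 library overlapped any M0 or M2 library. In either direction, 28.6% of all genes did not overlap between M1 and M0 and 35.7% between M1 and M2. Over the 15 libraries 1217715 reads in M1 stood against 237 in M0, a ratio of 5854 after scaling (95% counting interval 5154 to 6677). The fitted difference was 12.48 ± 0.31 (log2, SE; adjusted p = 7.1e-31, edgeR), and each of the 15 mice showed the rise. Between M2 and M0 the ranges overlapped and the difference was -0.75 ± 0.42 (log2, SE; edgeR adjusted p = 0.10). On average 0.301% of all reads of an M1 library came from *Cxcl9*, and at most 0.501%. Of the dendritic cell markers, *Xcr1* averaged 0.024 CPM in M0, 8.31 CPM in M1 and 0.0177 CPM in M2, and so was high in the same state as *Cxcl9*. *Zbtb46* averaged 0.619, 0.316 and 8.09 CPM in these states and *Flt3* did not exceed 0.317 CPM in any library. The sum of the 3 ran from 0.352 to 1.35 CPM in M0, from 4.96 to 11 CPM in M1 and from 3.83 to 12.7 CPM in M2, and its part in the *Cxcl9* level was not tested.

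*Cxcl10*, the CXCR3 ligand known for its early induction by interferons, was already present at rest. It ran from 3.24 through 14.3 to 22.4 CPM in M0, from 309 through 393 to 1220.0 CPM in M1 and from 0.112 through 0.222 to 0.973 CPM in M2. The 3 polarizations did not overlap each other, and between M2 and M0 this held for 23.4% of all genes. M1 exceeded M0 by 5.20 ± 0.25 (log2, SE; edgeR adjusted p = 2e-21), and from M0 to M2 it fell by 5.46 on the log2 scale (SE 0.35, adjusted p = 5.6e-17). This was the widest fitted difference of any member between M2 and M0, and 15 of 15 mice showed it. Within M0 its level moved with the replicate number, since number 5 was lowest in each genotype, at 4.37, 3.24 and 3.87 CPM.

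*Cxcl11* was an M1 transcript alone at this depth. Its 15 M1 libraries held 7679 reads, between 2.81 and 69.2 CPM with a median of 11.2 CPM. The 15 M0 libraries held 7 reads in all, of which 5 were in p.284R, and the 15 M2 libraries held 3. At these depths 3 reads equal between 0.0622 and 0.182 CPM, so levels below that were not detectable. The ratio of reads between M1 and M0 was 1250 (95% counting interval 606 to 3110, for counting error only), and all 15 mice showed it. The fitted difference of 9.90 ± 0.50 (log2, SE; edgeR adjusted p = 2.1e-19) depends on how the model treats the empty groups and is no bound.

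The CXCR2 ligands were low throughout, and the members *Cxcl1* and *Cxcl2* were highest at rest. *Cxcl1* ran from 0.647 through 1.06 to 2.47 CPM in M0, from 0 to 0.304 CPM in M1 and from 0 to 0.27 CPM in M2. All 542 M0 reads stood against 26 in M1 and 38 in M2, ratios of 18.3 (95% counting interval 12.3 to 28.3) and 12.6 (9.07 to 18). Each of the 15 mice had less *Cxcl1* in both polarized states than in M0 (edgeR adjusted p = 1.2e-15 and 2.1e-14), and M1 and M2 overlapped and were not called apart (adjusted p = 0.15). *Cxcl2*, the related neutrophil attractant, ran from 1.76 through 4.40 to 7.03 CPM in M0, from 0.639 through 1.15 to 3.62 CPM in M1 and from 0.498 through 0.703 to 2.20 CPM in M2. It fell by 1.47 on the log2 scale in M1 (SE 0.21, adjusted p = 4.2e-08) and by 2.13 in M2 (SE 0.22, adjusted p = 2.2e-11), in all 15 mice, although the libraries of M0 and M1 overlapped. M1 exceeded M2 by 0.65 ± 0.23 (log2, SE; adjusted p = 0.0097), in 12 of 15 mice. *Cxcl3*, the gene dropped by the rule, shared this scarcity, with 58 reads in M0, 8 in M1 and 79 in M2 over 15 libraries each, and 47 of the latter were in p.284R.

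*Cxcl14* moved opposite to the CXCR3 ligands in M1, though not in M2. It ran from 6.14 through 14.8 to 18.9 CPM in M0, from 0.533 through 1.20 to 2.33 CPM in M1 and from 6.36 through 10.7 to 15 CPM in M2. M1 lay below M0 and M2 without overlap. In M1 it fell by 3.55 on the log2 scale (SE 0.16; edgeR adjusted p = 1.1e-22), in all 15 mice. In M2 it fell by 0.40 (SE 0.13, adjusted p = 0.0067), within overlapping ranges and in 13 of 15 mice. Summed fibroblast markers (*Col1a1*, *Col1a2*, *Dcn* and *Pdgfra*) ran from 15.7 to 84.6 CPM in M0, from 6.32 to 19.8 CPM in M1 and from 8.88 to 30.6 CPM in M2, and 3 of the 3 tested were called lower in M1 as well. Over all genes 40.3% were called lower in M1. The part of the fibroblast markers in the values of *Cxcl14* and *Cxcl1* was not tested. In these cultures fewer cells of a type and less RNA per cell cannot be told apart.

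*Cxcl16* was the most abundant member outside M1. It ran from 169 through 218 to 356 CPM in M0, from 224 through 293 to 537 CPM in M1 and from 55.5 through 70.0 to 83.7 CPM in M2. M2 lay below both others without overlap, and from M0 to M2 *Cxcl16* fell by 1.82 on the log2 scale (SE 0.11; edgeR adjusted p = 6.1e-18). The rise in M1 was small against this, 0.45 ± 0.11 (log2, SE; adjusted p = 0.00027), with overlapping libraries and 14 of 15 mice higher. *Zmynd15*, on its opposite strand, averaged 20.8 CPM in M0, 16.3 CPM in M1 and 2.77 CPM in M2, and its part in the *Cxcl16* counts was not tested.

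**Figure D2:**
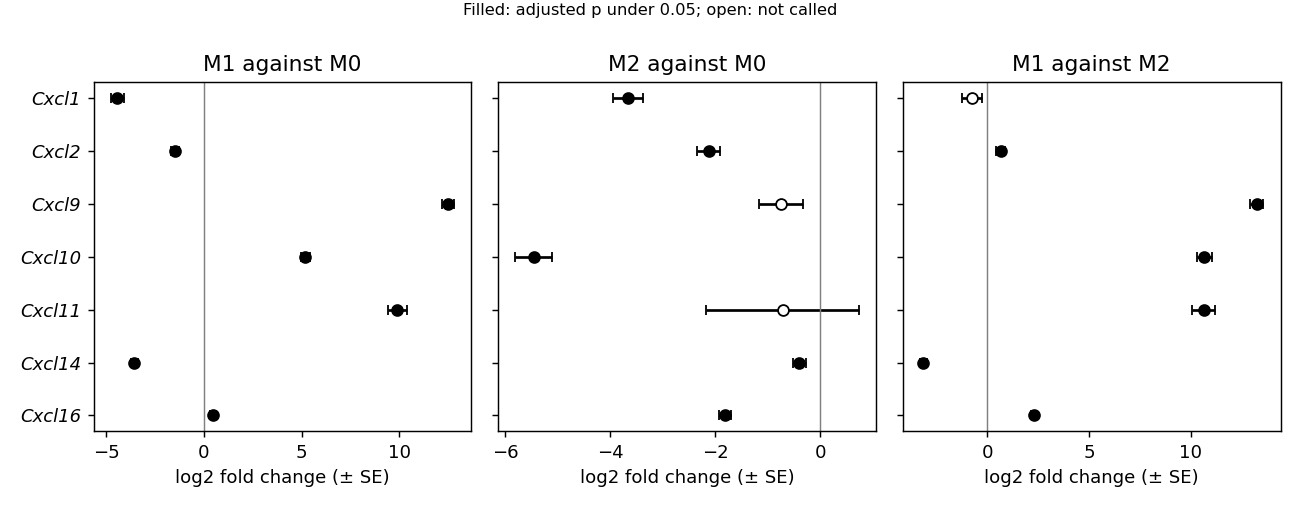
Fitted differences (x axis, log2 fold change ± SE, edgeR) of the 7 chemokines for M1 against M0, M2 against M0 and M1 against M2; filled points were called at an adjusted p under 0.05, and each panel has its own scale. *Cxcl9*, *Cxcl10* and *Cxcl11* stand far to the right in M1, and *Cxcl1*, *Cxcl2*, *Cxcl10*, *Cxcl14* and *Cxcl16* are filled on the left in M2 against M0.

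Levels of different genes were compared per kilobase of annotated exon, as CPM per kb. In M0 the order was *Cxcl16* (mean 80.0 ± 18.7 CPM per kb, SD, n = 15), *Cxcl14* (7.69 ± 1.76), *Cxcl10* (5.95 ± 2.93), *Cxcl2* (2.02 ± 0.640), *Cxcl1* (0.628 ± 0.223), *Cxcl9* (0.181 ± 0.131) and *Cxcl11* (0.00393 ± 0.00869). *Cxcl14* and *Cxcl10* were neighbours whose levels did not differ beyond their spread. In M1 it was *Cxcl9* (1036 ± 441), *Cxcl10* (235 ± 140), *Cxcl16* (111 ± 33.2), *Cxcl11* (5.28 ± 5.69), *Cxcl2* (0.782 ± 0.505), *Cxcl14* (0.657 ± 0.245) and *Cxcl1* (0.0393 ± 0.0532), where *Cxcl2* and *Cxcl14* lay within each other's spread. In M2 *Cxcl16* (22.7 ± 3.38) led *Cxcl14* (5.90 ± 1.52), with every other member at or below a mean of 0.472 CPM per kb. *Cxcl16* made up 82.4% ± 4.22 (SD, n = 15) of the summed CPM per kb of the 7 members in M0 and 77.1% ± 6.00 in M2, and *Cxcl9* made up 73.7% ± 7.72 in M1. The summed CPM of the members ran from 191 to 382 in M0, from 1534 to 7106 in M1 and from 66.8 to 93.5 in M2.

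The second question was whether the variants of *Famin* change these levels. The *Lacc1* transcript, which says nothing of the protein of these point variants, was at 486 to 523 CPM in M1 of p.254I, at 533 to 597 CPM in p.254V, and in p.284R at 396, 263, 218, 584 and 553 CPM for replicates 1 to 5. The M1 library of p.254I number 5 held *Retnla* at 49.1 CPM and *Arg1* at 40.8 CPM, genes of the IL-4 response that were at or below 0.249 and 0.912 CPM in the other 14 M1 libraries. Its chemokine levels lay within the range of the other p.254I M1 libraries for *Cxcl2*, *Cxcl9*, *Cxcl10*, *Cxcl11* and *Cxcl16*, and values without it are given where a call rests on it.

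In M1 the means of p.284R lay above those of p.254I for the 3 CXCR3 ligands, *Cxcl16* and the CXCR2 ligands, and of these differences that of *Cxcl11* was called. That is 1 of 7 members, where 0.263% of all genes tested were called (34 genes, 0.209% higher and 0.0542% lower). No member's p.284R libraries all lay above those of p.254I, and 0.604% of all genes did not overlap. Unadjusted p was under 0.05 for 6 of the 7 and for 864 of the 12905 genes tested. The median difference of the members was 1.22 (log2), beside -0.003 over all genes. *Cxcl9* and *Cxcl11* are among the genes the study listed as changed in these same libraries, so their direction here is not independent evidence.

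**Figure D3:**
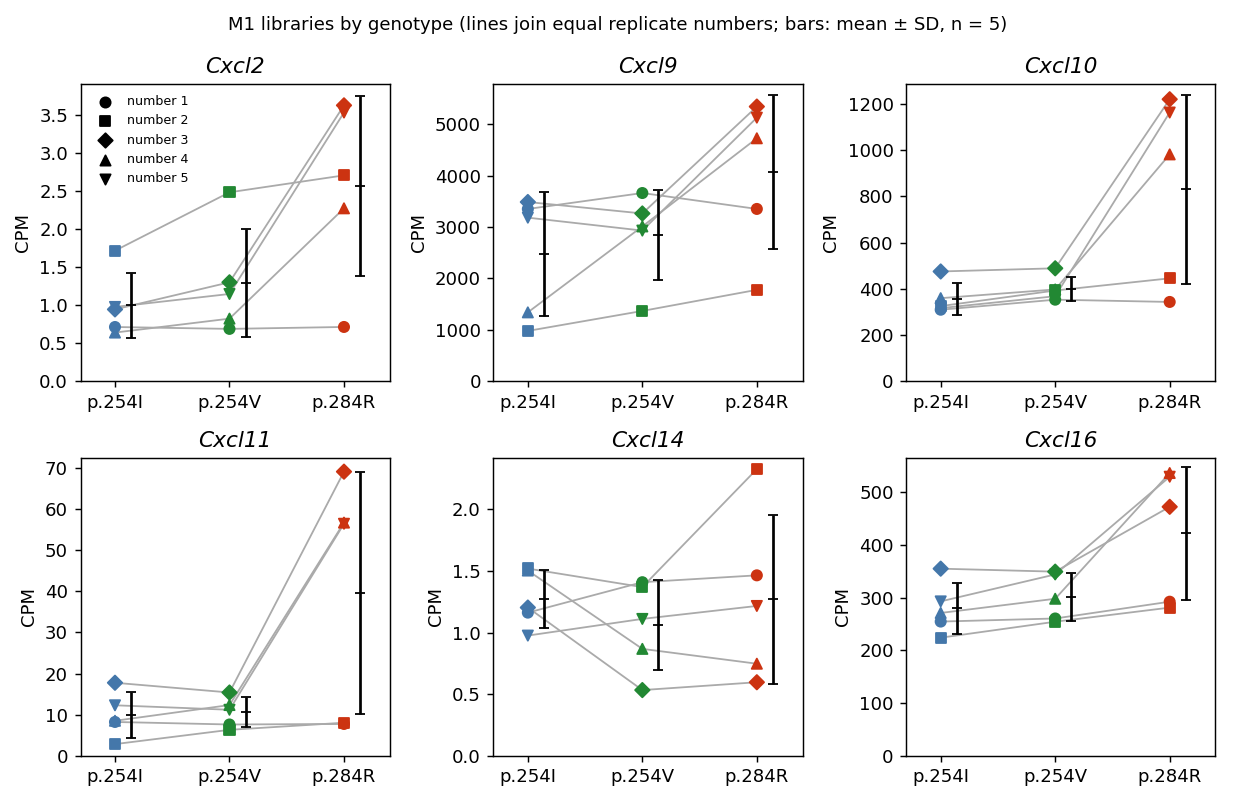
Level (y axis, CPM from 0) of 6 chemokines in the 5 M1 libraries of each genotype; lines join equal replicate numbers and bars give mean ± SD (n = 5). The p.284R libraries numbered 3, 4 and 5 lie above every p.254I and p.254V library for *Cxcl9*, *Cxcl10*, *Cxcl11* and *Cxcl16*, and those numbered 1 and 2 lie among them.

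*Cxcl11* was at 8.21, 2.81, 17.8, 8.49 and 12.3 CPM in replicates 1 to 5 of p.254I in M1, at 7.59, 6.29, 15.4, 12.3 and 11.2 CPM in p.254V, and at 7.72, 8.02, 69.2, 56.8 and 56.5 CPM in p.284R. Replicates 3, 4 and 5 of p.284R stood above all 10 other libraries, and replicates 1 and 2 lay within them, so the groups overlapped. The means were 9.91 ± 5.53 (SD, n = 5) CPM in p.254I, 10.6 ± 3.67 CPM in p.254V and 39.6 ± 29.4 CPM in p.284R. The fitted difference between p.284R and p.254I was 2.0 ± 0.42 (log2, SE; edgeR adjusted p = 0.019). With the replicate number as a block it was 1.78 ± 0.27 (edgeR adjusted p = 0.00073), and the count of all genes called rose from 34 to 64. That block gave each number a single effect shared by M0, M1 and M2, so it did not pair the M1 libraries alone. The call was lost with the DESeq2 Wald test (adjusted p = 0.28), with limma-voom (0.17), when limma-voom took the mouse as random block (0.24) and when only the compared libraries were fitted (0.85). It was also lost without p.284R replicate 3, 4 or 5 (adjusted p = 0.29, 0.16 and 0.16), without p.254I replicate 1, 2, 4 or 5 (0.10, 0.11, 0.20 and 0.056) and without p.254V replicate 4 (0.051), and it held without the p.254I M1 library numbered 5 alone (0.038).

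Against p.254V, *Cxcl11* of p.284R was higher by 1.91 ± 0.42 (log2, SE), at an edgeR adjusted p of 0.061 in M1. With the replicate number as a block this became 1.56 ± 0.27 (adjusted p = 0.0047), and the count of all genes called rose from 10 (0.0775% of those tested) to 36. It was likewise called without p.284R replicate 1 or 2 (adjusted p = 0.0025 and 0.0033) and without p.254I replicate 2 (0.043). None of the 7 members was called otherwise, and 4 had an unadjusted p under 0.05, as had 799 of the 12905 genes tested. Between libraries of equal number, p.284R exceeded p.254V in 5 of 5 numbers, by ratios of 1.02, 1.28, 4.50, 4.61 and 5.05. It exceeded p.254I in 4 of 5, with ratios of 0.941, 2.85, 3.9, 6.68 and 4.6 for numbers 1 to 5.

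*Cxcl10*, its neighbour on chromosome 5, was at 309, 325, 475, 359 and 316 CPM in replicates 1 to 5 of p.254I in M1, at 353, 393, 489, 397 and 368 CPM in p.254V, and at 343, 445, 1220.0, 981 and 1163 CPM in p.284R. The same replicates 3, 4 and 5 of p.284R were high, and replicate 1 lay below every p.254V library. The difference from p.254I was 1.22 ± 0.36 (log2, SE), which did not pass the adjustment (edgeR adjusted p = 0.24, 0.078 with the replicate number as a block). It was in the same direction in 5 of 5 equal-numbered pairs, with ratios from 1.11 to 3.67. Against p.254V, p.284R was higher in 4 of 5 such pairs, with a ratio of 0.972 in number 1.

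*Cxcl9* was at 3349, 979, 3485, 1339 and 3181 CPM in replicates 1 to 5 of p.254I in M1, at 3659, 1367, 3262, 3009.9 and 2929 CPM in p.254V, and at 3350.0, 1777, 5340, 4723 and 5125 CPM in p.284R. Replicate 2 was lowest in each genotype, and the groups overlapped. The difference between p.284R and p.254I was 0.72 ± 0.32 (log2, SE; edgeR adjusted p = 0.66). Equal-numbered pairs had ratios of 1.0, 1.82, 1.53, 3.53 and 1.61. The means were 2466 CPM in p.254I and 4063 CPM in p.284R, on 324423 and 501535 reads.

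*Cxcl16* was at 255, 224, 355, 271 and 293 CPM in replicates 1 to 5 of p.254I in M1, at 261, 254, 349, 298 and 344 CPM in p.254V, and at 292, 281, 473, 537 and 530 CPM in p.284R. Replicates 3, 4 and 5 of p.284R again stood above all other M1 libraries, and 1 and 2 did not. The difference from p.254I was 0.60 ± 0.19 (log2, SE; edgeR adjusted p = 0.28).

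Among the CXCR2 ligands, *Cxcl2* was at 0.712, 1.71, 0.943, 0.639 and 0.975 CPM in replicates 1 to 5 of p.254I in M1, at 0.687, 2.48, 1.30, 0.822 and 1.15 CPM in p.254V, and at 0.712, 2.70, 3.62, 2.27 and 3.53 CPM in p.284R. Here replicate 2 was highest in both p.254I and p.254V, and 4 of the 5 p.284R libraries exceeded every p.254I library. The difference from p.254I was 1.33 ± 0.38 (log2, SE; edgeR adjusted p = 0.19), and it was called without p.284R replicate 1 (1.58 ± 0.36, adjusted p = 0.022). *Cxcl1* rested on 17 reads in p.284R and 2 in p.254I, a ratio of 9.21 (95% counting interval 2.19 to 82.2, for counting error only), at an edgeR adjusted p of 0.30. *Cxcl14*, the homeostatic member, was not called, with 1.27 ± 0.234 (SD, n = 5) CPM in p.254I, 1.06 ± 0.366 CPM in p.254V and 1.27 ± 0.687 CPM in p.284R, and its M1 levels were lowest in replicate 3 of both p.254V and p.284R (0.533 and 0.596 CPM).

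Summed neutrophil markers (*S100a8*, *S100a9*, *Ly6g*, *Mpo* and *Elane*) ran from 28.5 to 94.4 CPM in M1 of p.254I, from 36.5 to 57.8 CPM in p.254V and from 29.4 to 81.5 CPM in p.284R, and 0 of the 4 tested were called between p.284R and p.254I. Summed T cell markers (*Cd3e* and *Cd3g*) did not exceed 0.122 CPM in any M1 library. None of the 7 macrophage markers, *Adgre1*, *Csf1r*, *Cd68*, *Itgam*, *Mertk*, *Fcgr1* and *Lyz2*, was called between these genotypes, and their sum ran from 11223 to 15065 CPM in M1. Only 0.263% of all genes tested were called in this comparison, so an absence of calls in lists this short says little about the make-up of the cultures.

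**Figure D4:**
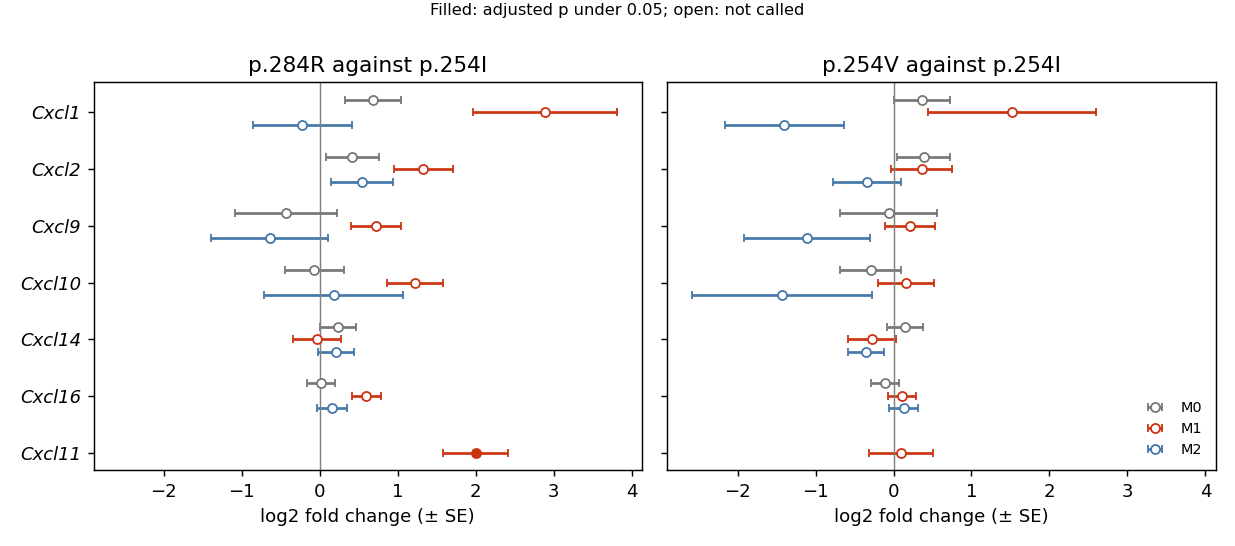
Fitted differences (x axis, log2 fold change ± SE, edgeR) of p.284R (left) and p.254V (right) from p.254I in M0 (grey), M1 (red) and M2 (blue); *Cxcl11* is drawn in M1 only, and filled points were called. *Cxcl11* in M1 of p.284R, at 2.0, is the only filled point, and both panels share the p.254I libraries.

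In M0 and M2 no chemokine was called between genotypes. In M0, edgeR called 0 members between p.284R and p.254I and 0 between p.254V and p.254I, and 0 had an unadjusted p under 0.05 in either; over all genes 0.0% were called in both. The fitted differences in M0 lay between -0.43 and 0.68 (log2) for p.284R, leaving out *Cxcl11* with its 7 reads, and between -0.29 and 0.39 for p.254V. In M2 edgeR called 0 members in either comparison (0.00775% and 0.0% of all genes), again with 0 at an unadjusted p under 0.05. The median difference of the 7 members in M2 was 0.16 (log2) for p.284R and -1.11 for p.254V, beside -0.008 over all genes for the latter. *Cxcl10* (-1.43 ± 1.15, log2, SE), *Cxcl1* (-1.40 ± 0.76) and *Cxcl9* (-1.11 ± 0.81) were the members at or beyond that median in p.254V apart from *Cxcl11*, which held 3 reads in all M2 libraries. *Cxcl10* in M2 was at 0.222 to 0.579 CPM in p.254I and at 0.115 to 0.189 CPM in p.254V, 53 and 19 reads in all, so that these groups did not overlap, as for 0.333% of all genes, yet the test gave an adjusted p of 1.0. DESeq2 and limma-voom also called 0 members in each of these 4 comparisons.

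Between p.254V and p.254I no chemokine was called in M1. The differences were 0.09 ± 0.41 (log2, SE) for *Cxcl11*, 0.16 ± 0.36 for *Cxcl10*, 0.21 ± 0.32 for *Cxcl9*, 0.36 ± 0.39 for *Cxcl2* and 0.11 ± 0.18 for *Cxcl16*. The direction turned where single mice were left out, since *Cxcl11* went to -0.15 without p.254I replicate 2 and to -0.08 without p.254V replicate 3, and *Cxcl2* to -0.02 without p.254V replicate 2. edgeR called 0 of the 7 members, as it did 0.0% of all genes, and 0 had an unadjusted p under 0.05. Whether the genotype difference changed from M0 to M1 was tested directly, as the M1 difference minus the M0 difference. For p.284R, edgeR called 0 members (0.0% of all genes). An unadjusted p under 0.05 was found for 3 members and for 356 of the 12905 genes tested. The 3 were *Cxcl1* (2.21 ± 0.99, log2, SE), *Cxcl10* (1.28 ± 0.53) and *Cxcl16* (0.57 ± 0.26), each at an adjusted p of 1.0. For p.254V, edgeR called 0 of 7 (0.0% of all genes), and no member reached an unadjusted p under 0.05. A difference seen in M1 and not in M0 was therefore not shown to depend on polarization.

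Within M1 some members varied together from mouse to mouse and others ran against each other. Because the p.284R libraries formed separate sets, correlations were taken over the 10 libraries of p.254I and p.254V, as deviations of log2(CPM + 1) from each genotype's mean, and are descriptions of libraries that share replicate numbers. *Cxcl11* and *Cxcl16* had r = 0.91, *Cxcl9* and *Cxcl11* 0.76, *Cxcl10* and *Cxcl16* 0.69 and *Cxcl10* and *Cxcl11* 0.60. *Cxcl9* and *Cxcl10* had r = 0.17, although they lie 18.6 kb apart. *Cxcl14* ran against *Cxcl11* (r = -0.67) and *Cxcl16* (-0.63), and *Cxcl2* ran against *Cxcl9* (-0.65) in these 10 libraries. Over all 15 M1 libraries, as deviations within genotype, *Cxcl2* and *Cxcl9* had r = -0.24 and *Cxcl9* and *Cxcl10* 0.45. There *Cxcl14* had r = -0.79 with *Cxcl11* and -0.74 with *Cxcl16*.

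**Figure D5:**
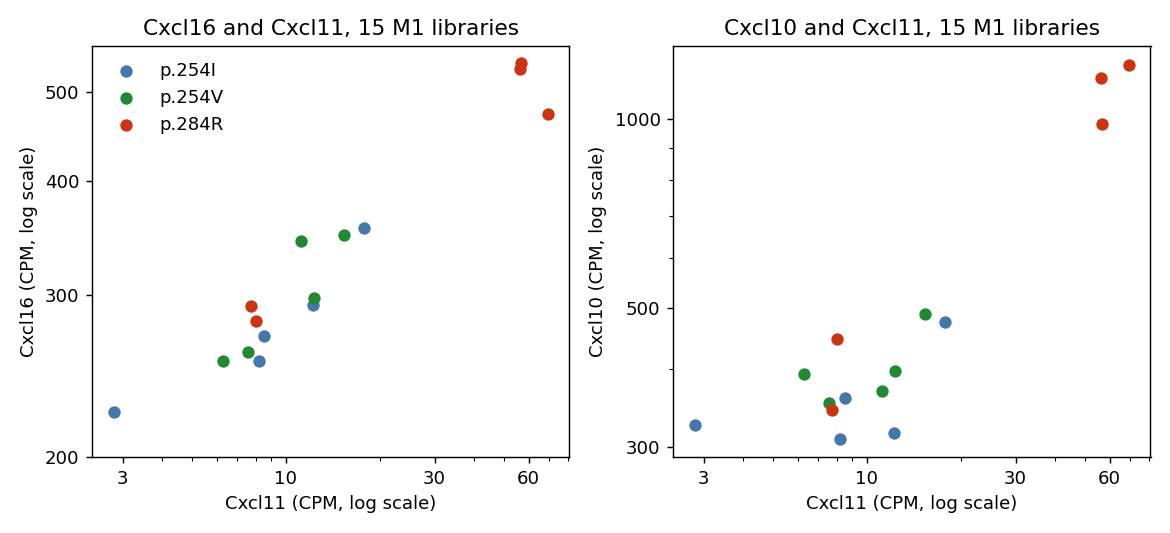
*Cxcl16* (left) and *Cxcl10* (right) against *Cxcl11* in the 15 M1 libraries (CPM, log scales), coloured by genotype. The 3 p.284R libraries numbered 3, 4 and 5 stand apart at the upper right, and *Cxcl16* rises with *Cxcl11* among the other 12 as well.

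Genes with the most similar pattern were found by Pearson's r of log2(CPM + 1) over all 45 libraries, which fall into 3 polarizations, so that r mainly reflects these. For *Cxcl9* they were *Clic5*, *Tgtp1* (both 0.998) and *Bcl2l14* (0.997), for *Cxcl10* *Tlr9* (0.988), *Nod1* (0.987) and *C1rl* (0.986), and for *Cxcl11* *Ubd* (0.99), *Nos2* (0.987) and *Ly6i* (0.983). For *Cxcl16* they were *Acp2*, *Arhgef2* (both 0.973) and *Nectin4* (0.968), for *Cxcl14* *Colec12*, *Mamdc2* (both 0.973) and *Padi2* (0.971), for *Cxcl1* *Gpr137b* (0.945), *Xylt2* (0.941) and *Cx3cr1* (0.939), and for *Cxcl2* *Ccdc50* (0.885), *Ptger4* (0.848) and *Herc3* (0.847). Over the 15 M1 libraries alone, the genes most like *Cxcl1*, whose fitted genotype difference of 2.89 was the widest but rested on 17 against 2 reads and was not called, were *Ptger3* (0.896), *Adhfe1* (0.888) and *Pex11a* (0.875), a likeness over only 26 reads of *Cxcl1*. For *Cxcl11*, added after its values had been seen, they were *Traf1* (0.974), *1110002J07Rik* (0.973) and *Acod1* (0.971). *Nos2*, the inducible nitric oxide synthase, averaged 17.2 CPM in M1 of p.254I and 79.0 CPM in p.284R, and *Acod1*, which makes itaconate, 253 and 869 CPM. Both genes were picked for their likeness to *Cxcl11*, which was high in some p.284R libraries, so these means are not separate evidence. *Nos2* is also on the list of M1 markers, which was chosen with earlier results of these data known.

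Of 7 other CXC ligands, 3 could be tested (*Pf4*, *Ppbp* and *Cxcl12*), and all 3 were called lower in M1 and in M2 than in M0, where 40.3% and 39.6% of all genes were called lower. *Pf4*, platelet factor 4 that macrophages also make, averaged 254 CPM in M0, 38.2 CPM in M1 and 113 CPM in M2, so its M1 minimum resembled that of *Cxcl14*. Of 8 CXC receptors, 4 were tested. The receptor of *Cxcl9*, *Cxcl10* and *Cxcl11*, *Cxcr3*, averaged 9.84 CPM in M0, 8.96 CPM in M1 (adjusted p = 0.23) and 0.652 CPM in M2, where it fell by 3.92 on the log2 scale (adjusted p = 8.4e-25). *Cxcr2*, which reads *Cxcl1* and *Cxcl2*, was below 1.5 CPM on average in each state and was called lower in M1 and higher in M2. *Cxcr6*, the *Cxcl16* receptor, averaged 0.119 CPM in M0, 0.138 CPM in M1 and 0.364 CPM in M2, where it was called higher than in M0 (1.45 ± 0.38, log2, SE; edgeR adjusted p = 0.00086). That call rested on 56 reads in M0 and 143 in M2, near the floor of 3 reads per library and with overlapping ranges. *Cxcr4*, the receptor of *Cxcl12*, averaged 125 CPM in M0 and was the receptor that fell most in M1, to 4.97 CPM, with 24.97 CPM in M2. Of the 4 proteases, 1 was higher and 3 were lower in M1, where 37.0% and 40.3% of all genes were. In M2, 1 was higher and 2 were lower, where 36.8% and 39.6% of all genes were. *Mmp12*, the macrophage elastase, averaged 2249.5 CPM in M0, 36.97 CPM in M1 and 10035 CPM in M2, both changes called. *Dpp4*, which trims the amino terminus of CXCR3 ligands, rose by 4.79 (log2) in M1 and fell by 1.12 in M2. *Adam17* fell by 0.38 in M1 and by 0.27 in M2, and *Adam10* fell by 0.17 in M1 and was not called in M2 (0.12, adjusted p = 0.087).

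Among genes of IFN-γ signalling, *Irf1* was higher in M1 by 3.75 and *Jak2* by 1.32 (log2), and *Ifngr1* and *Jak1* were lower. Of 8 genes of LPS and NF-κB signalling, 3 were higher in M1 (*Myd88*, *Nfkb1* and *Tlr4*) and 1 lower (*Cd14*), beside 37.0% and 40.3% of all genes. In M2 2 were higher and 6 lower, beside 36.8% and 39.6% of all genes, and *Nfkbiz* fell by 3.80. Between p.284R and p.254I in M1, 1 of the 8 NF-κB genes was called (0.263% of all genes were), *Nfkbia*, the inhibitor induced by NF-κB itself. *Nfkbia* was at 41.6 to 51.2 CPM in p.254I, at 44.4 to 54.9 CPM in p.254V and at 43.1, 61.3, 126, 104 and 116 CPM in replicates 1 to 5 of p.284R (0.96 ± 0.16, log2, SE; edgeR adjusted p = 0.0042). The call was lost without p.284R replicate 3, 4 or 5 (adjusted p = 0.083, 0.052 and 0.061) and with only the compared libraries (0.85). The high libraries were again replicates 3, 4 and 5, as for *Cxcl10* and *Cxcl11*. Of the 3 RNA-binding proteins that act on chemokine mRNA (*Zfp36*, *Zc3h12a* and *Elavl1*), 1 was called higher in M1, *Elavl1* by 0.09 (log2). Over all genes, 37.0% were called higher in M1. In M2, 2 of these 3 genes were called higher, where 36.8% of all genes were. Of the 3 IL-4 signalling genes (*Il4ra*, *Il2rg* and *Stat6*) 2 were higher in M1, where 37.0% of all genes were. Between p.284R and p.254I in M1, 0 genes of either list were called, beside 0.263% of all genes. The M1 marker genes *Nos2* and *Tnf* were higher in M1 than in M0 (9.97 and 1.89, log2), while *Il6* and *Il12b* did not pass the filter on low counts, and the M2 markers *Arg1*, *Retnla*, *Chil3* and *Mrc1* were all higher in M2. In M1 of p.284R against p.254I, 1 of the 2 M1 markers tested was called higher and 2 of the 4 M2 markers lower. Over all genes 0.209% were called higher and 0.0542% lower there. The p.254I M1 library numbered 5 held *Retnla* and *Arg1* far above the other M1 libraries.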

How the data were processed

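Bulk RNA-seq of 45 BMDM libraries (9 groups of 5) was analysed. The authors deposited counts, whole numbers of reads per Ensembl gene without normalization, and a CPM table for 11900 genes. Whole reads recovered from the deposited CPM equalled the counts for 100% of values (tolerance 0.01 read). Per the labels and methods, reads were trimmed with Trim Galore and aligned with HISAT2 to mm10 from stranded mRNA libraries of 50 base reads, whereas the series text names Cutadapt and STAR. The counting tool, annotation and use of strand are not given in the sources used here. Genotype, polarization and replicate number came from the labels, and 29081 gene identifiers matched GENCODE. The unit of replication is the mouse, and 0 of the 990 pairs of libraries were identical. Where values rest on separate cultures of 1 mouse, p-values treat them as independent.

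Total counts ran from 17239009 to 43740283 (median 27553642), so that 3 reads equal 0.0622 to 0.182 CPM. Tests were run on the counts with edgeR 4.0.16 under R 4.3.3 (filterByExpr over 9 groups, 12905 genes; TMM factors 0.939 to 1.1; robust glmQLFit), with adjusted p under 0.05 as the call, in 12 comparisons. Counting intervals (95%) and floors cover counting error only, since reads carried no molecular identifiers. In simulated data with 200 of 12905 genes changed 2-fold, 98.5% of these were called for M1 against M0 and 86.5% for p.284R against p.254I in M1. The changed genes were drawn only from genes above a set mean CPM, so these shares do not cover the scarcest genes. The simulated libraries varied independently around a common mean, without shared replicate numbers or mice. These shares can therefore overstate the power in the real data. The members and lists were chosen with earlier results of these data known. The text names every member, *Lacc1*, genes of each list and the 3 genes with the highest Pearson r for each member. The IFN-γ signalling list is not reported here in full. Figures were drawn with matplotlib 3.10.9.

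Libraries of equal replicate number and polarization deviated together from their group means over 9522 genes, with r between 0.12 and 0.86 for the 15 pairs in M0, between 0.28 and 0.87 in M1 and between -0.42 and 0.78 in M2, where 13 of 15 exceeded 0.1, so the numbers were taken to pair libraries in M0 and M1. The sources do not say what a number marks. Alternatives were edgeR with size factors from DESeq2 (1.42.0), the Wald test of DESeq2, voom in limma 3.58.1, no filter, at least 10 reads in every library, the replicate number or the mouse as a block, only the libraries compared and each mouse left out. Reads recovered from the CPM table and leaving out the p.254I M1 library numbered 5 were chosen after seeing the data.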

Additional observations from a re-analysis of the deposited data

Results flagged for a closer look

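Of 55 groups of 5 libraries with more than 3 reads in some library, 6 held a library whose gap to the nearest other exceeded the critical share of the range (0.71), and chance gives about 1 in 20. *Cxcl2* was lowest in M0 of p.284R replicate 1 (3.14 CPM, others 4.81 to 5.10 CPM) and highest in M2 of p.254V replicate 2 (1.29 CPM, others 0.498 to 0.613 CPM). *Cxcl9* was highest in M0 of p.254I replicate 4 (1.45 CPM, others 0.271 to 0.539 CPM) and of p.284R replicate 2 (0.830 CPM, others 0.264 to 0.397 CPM). *Cxcl11* was highest in M0 of p.284R replicate 2 (0.123 CPM, others 0 to 0.0276 CPM), which is 4 reads. *Cxcl16* was highest in M0 of p.254V replicate 3 (299 CPM, others 193 to 218 CPM).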

How the results depend on the processing

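Of 926 alternative values of the differences given for members and *Nfkbia*, 900 kept their direction and their side of the threshold, and 23 kept their direction alone. The 3 others concern p.254V against p.254I in M1, where leaving out 1 mouse at a time gave -0.02 (without p.254V replicate 2) to 0.66 for *Cxcl2* and -0.15 (without p.254I replicate 2) to 0.42 for *Cxcl11*, with -0.08 without p.254V replicate 3. Every member called between polarizations stayed called in all alternatives in which it was tested. Requiring 10 reads in every library left 3 members tested, and 3 were called in each polarization comparison, where 7 (M1 against M0), 5 (M2 against M0) and 6 (M1 against M2) had been called, because the other 4 were not tested. *Cxcl9* in M2 against M0 was called by DESeq2 (adjusted p = 0.02) and with only the compared libraries (0.037).

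For p.284R against p.254I in M1, members called fell from 1 to 0 with DESeq2, limma-voom, the random mouse block, only the libraries compared and, since *Cxcl11* was not tested, the 10-read filter, and ranged from 0 to 2 when a mouse was left out. All genes called went from 34 to 64 with DESeq2 and with the replicate block, 11 with limma-voom, 7 with the random mouse block and 1 with only the libraries compared, and ranged from 0 (without p.284R replicate 5) to 110 (without p.284R replicate 2). For p.284R against p.254V in M1, all genes called went from 10 to 21 with DESeq2, 36 with the replicate block, 4 with no filter and 0 with limma-voom, the random mouse block and only the libraries compared, and from 0 to 66 with a mouse left out. Members called rose from 0 to 1 with the replicate block and ranged from 0 to 1 with a mouse left out.

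The remaining comparisons held few calls. In M0, p.284R against p.254I went from 0 to 1 with DESeq2, the replicate block and only the libraries compared (0 to 1 without a mouse), and p.254V from 0 to 1 with DESeq2 (0 to 1). In M2, p.284R went from 1 to 2 with DESeq2 and only the libraries compared (1 to 2), and p.254V from 0 to 2 with DESeq2 (0 to 1). In M1, p.254V went from 0 to 3 with DESeq2. The change of the p.284R difference from M0 to M1 gave 0 to 1 genes without a mouse. The replicate block changed no other member call, and with pairing unclear in M2 it is not read there. The causes were not tested. *Cxcl1* in M1 rested on 26 reads, and *Cxcl11* on 7 in M0 and 3 in M2.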
